A study of Homo sapiens with 29 samples.

Results

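The comparison described here asks what the antiandrogen enzalutamide (Enza) changed in C4-2 cells that also received CC-115. C4-2 is a castration-resistant derivative of the LNCaP prostate cancer line. The members are 6 of the 29 libraries of the series, chosen by their labels: 3 libraries of cells given CC-115 and Enza together (CC-115+Enza) and 3 of cells given CC-115 alone. Each compound was used at 1 µM for 24 hours, in medium that contained hormone in all groups. The same addition of Enza was measured in cells without inhibitor (Enza against untreated Ctrl), with NU7441 and with CC-223, in 6 libraries each, and these serve as comparison. NU7441 is a DNA-PK inhibitor, CC-223 a TOR kinase inhibitor, and CC-115 is known to inhibit both DNA-PK and TOR kinase. All groups are 1 cell line, the labels do not say whether the libraries of a group came from separate cultures, and the p-values therefore measure the spread between these libraries, which may be technical.

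Androgen acts on prostate cells by switching on genes through response elements built from AGAACA-like half-sites. Enza blocks this signalling. Kallikreins such as KLK3, which encodes prostate-specific antigen, are classical androgen-induced genes of prostate epithelium. Androgen also drives lipid synthesis in prostate cells, and TOR kinase promotes the processing of the SREBP factors that switch on sterol and fatty acid genes.

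Total counts were 34.94 to 38.56 M in the CC-115 libraries and 31.35 to 44.86 M in the CC-115+Enza libraries. Values below are CPM, read counts relative to the library total after TMM scaling, and changes are log2 fold changes with standard errors (SE) from edgeR's quasi-likelihood test across all 24 C4-2 libraries. A gene was called where its Benjamini-Hochberg adjusted p was under 0.05. Library 1 of CC-115+Enza stood apart: its log2 CPM correlated with the other two of its group at r = 0.971 and 0.972 across 13333 genes, against 0.996 between those, and 267 genes lay over 2-fold above and 213 over 2-fold below the mean of the others. Library 1 of Enza did likewise, with r of 0.967 and 0.970. Mitochondrial genes held 2.04% of the counts in library 1 of CC-115+Enza and 0.868% and 1.09% in the other libraries of its group. The part of these differences in the results was not tested.

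Adding Enza to CC-115 raised 2666 genes and lowered 2785 of 22860 tested, which is 11.7% and 12.2%. The count was 3501 genes without library 1 of CC-115+Enza, and 3612 and 3623 without library 1 or library 3 of CC-115. A fit of these 6 libraries alone called 1908 genes, and the same fit without library 1 of CC-115+Enza called 5655. Without inhibitor, Enza raised 2137 genes (9.35%) and lowered 1542 (6.75%). DESeq2, which scales libraries differently, gave 1922 raised and 2190 lowered for that comparison, and 2398 and 2980 for Enza added to CC-115. Without library 1 of NU7441, edgeR gave 2916 raised and 2465 lowered for Enza added to CC-115. Without library 2 of Ctrl it gave 1124 and 1639 for Enza against Ctrl. The balance of rises and falls was therefore not stable in either comparison. Of the genes lowered on CC-115, 994 were also lowered by Enza alone, which is 35.7% of the former and 64.5% of the latter. Of the genes raised on CC-115, 778 were also raised by Enza alone, which is 29.2% and 36.4%. The plot of called shares sets each gene list beside the share of all genes.

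**Figure D1:**
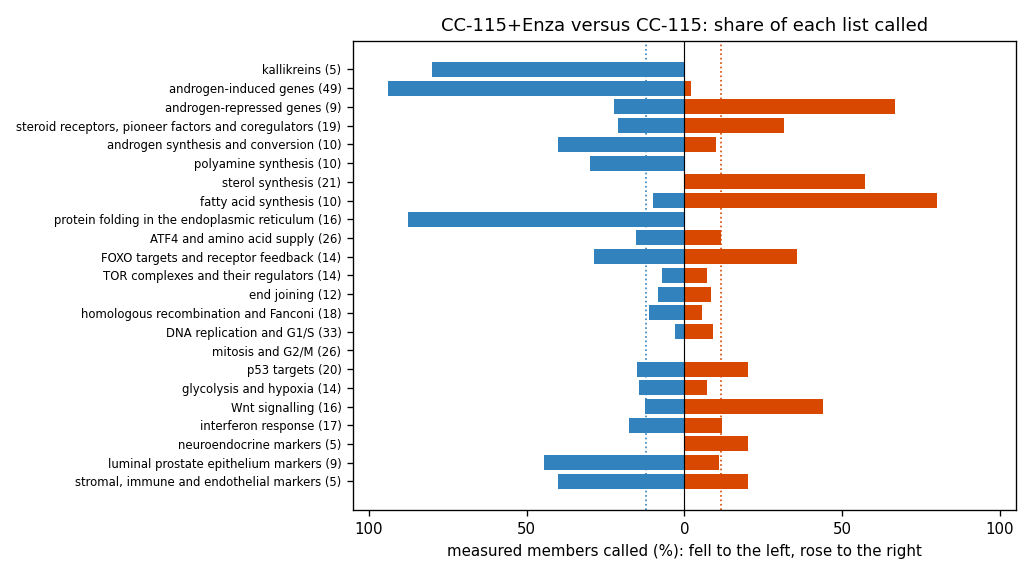
Share of the measured members of each gene list that fell (bars to the left, blue) or rose (bars to the right, orange) when Enza was added to CC-115, in percent, with the number of measured members in brackets. Dotted lines mark the share of all tested genes, 12.2% for falls and 11.7% for rises. Androgen-induced genes, kallikreins and endoplasmic reticulum folding genes lie mostly on the side of falls, and sterol and fatty acid synthesis genes on the side of rises. Lists with fewer than 5 measured members are left out.

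Among 5 kallikreins, 4 fell and 1 did not pass the test. KLK3 (chr19:51358171-51364020, hg19 for gene positions here and below) had 4382, 4293 and 4434 CPM with CC-115 and 1089, 1305 and 1562 CPM once Enza was added. The groups did not overlap, and the fall was -1.73 ± 0.12 (adjusted p = 1.4e-11), or 3.31-fold. KLK2 (chr19:51364824-51383823), a neighbouring protease of the same family, went from 3183, 3189 and 3309 to 540, 711 and 797 CPM, a change of -2.24 ± 0.13. KLK4 fell by 0.97 and KLK15 by 0.67 on the log2 scale. The pseudogene KLKP1 had a value of -0.35 that was not called, with an adjusted p of 0.20. Without library 1 of CC-115+Enza it was called at -0.62 (adjusted p = 0.026), so that all 5 fell. In a culture, fewer cells that express a gene and less RNA of it per cell cannot be told apart. KLK2 and KLK3 are near relatives, and how reads with several alignments were shared between such genes is not given in the sources used here.

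The KLK3 level under CC-115+Enza, 1318 ± 237 CPM (SD, n = 3), lay between that of Ctrl, 1928 ± 81.1, and that of Enza alone, 639 ± 57.5. The level of KLK2 under the combination, 683 ± 131 CPM, was close to its level in Ctrl, 658 ± 11.3. With CC-115 alone KLK3 stood at 4369 CPM and KLK2 at 3227 CPM on average, above Ctrl. The Enza effect on KLK3 differed by -0.13 ± 0.16 between cells with and without CC-115 (adjusted p = 0.71), and that on KLK2 by -0.09 ± 0.17 (adjusted p = 0.83). edgeR called no difference in the Enza effect for any of the 5 kallikreins, against no inhibitor, NU7441 or CC-223. At an unadjusted p under 0.05 the difference was higher with CC-115 for 1 against no inhibitor, 3 against NU7441 and 0 against CC-223, and DESeq2 called 0, 1 and 0.

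The promoters of these 2 genes are shown because KLK2 and KLK3 moved together and because the KLK3 promoter holds a known proximal androgen response element. Each sequence gives the 250 bases before the RefSeq start, plus strand, build GRCh38.p14, at chr19:50854665-50854914 for KLK3 and chr19:50873189-50873438 for KLK2. Capitals mark a stretch of 15 bases that begins with the half-site AGAACA in KLK3, 170 bases before the start, and the best-matching stretch in KLK2, 176 bases before the start.
KLK3: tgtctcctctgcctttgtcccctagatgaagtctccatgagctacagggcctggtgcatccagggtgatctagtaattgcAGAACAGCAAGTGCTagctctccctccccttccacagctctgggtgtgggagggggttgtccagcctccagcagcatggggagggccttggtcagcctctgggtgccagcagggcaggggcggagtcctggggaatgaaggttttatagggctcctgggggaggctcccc
KLK2: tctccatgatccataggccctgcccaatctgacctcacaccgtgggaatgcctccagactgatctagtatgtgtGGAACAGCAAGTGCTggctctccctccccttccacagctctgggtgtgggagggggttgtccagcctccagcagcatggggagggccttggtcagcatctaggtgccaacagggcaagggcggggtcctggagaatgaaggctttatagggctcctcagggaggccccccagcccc
The marked stretches differ by 1 substitution, A1G, counted from 1 at the 5′ end of the KLK3 stretch with the KLK3 base first. AGAACA on either strand (AGAACA or TGTTCT) occurred in 12.4% of 35116 promoters of this length, in 1 of 4 kallikreins and in 3 of 38 androgen-induced genes found in the RefSeq table. A match is a description of letters and does not show binding.

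Of 49 measured androgen-induced genes (of 50 listed), 46 fell, 1 rose and 2 did not pass the test when Enza was added to CC-115. The median change was -1.67, against -0.01 over all genes tested. Without inhibitor, Enza lowered 42 of the same genes and raised 1, with a median of -1.37. Together with the kallikreins, 50 of 54 genes fell on CC-115, 47 fell without inhibitor and 45 fell in both. For each of the 50 genes that fell, every CC-115+Enza library lay below every CC-115 library. The calls came from the same libraries, so this separation adds no further test. The share of separated genes among all genes called is not given here.

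The serine protease TMPRSS2 went from 714, 725 and 747 to 85.7, 94.0 and 102 CPM, a change of -2.96 ± 0.12, against -1.80 without inhibitor. FKBP5, a co-chaperone of steroid receptors, went from 176, 176 and 188 to 26.3, 33.5 and 31.5 CPM, a change of -2.56 ± 0.15, against -1.53. On average FKBP5 had 30.4 CPM under the combination and 85.6 CPM with Enza alone. TMPRSS2 had 93.8 ± 8.04 CPM (SD, n = 3) under the combination and 69.5 ± 7.42 CPM with Enza alone.

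**Figure D2:**
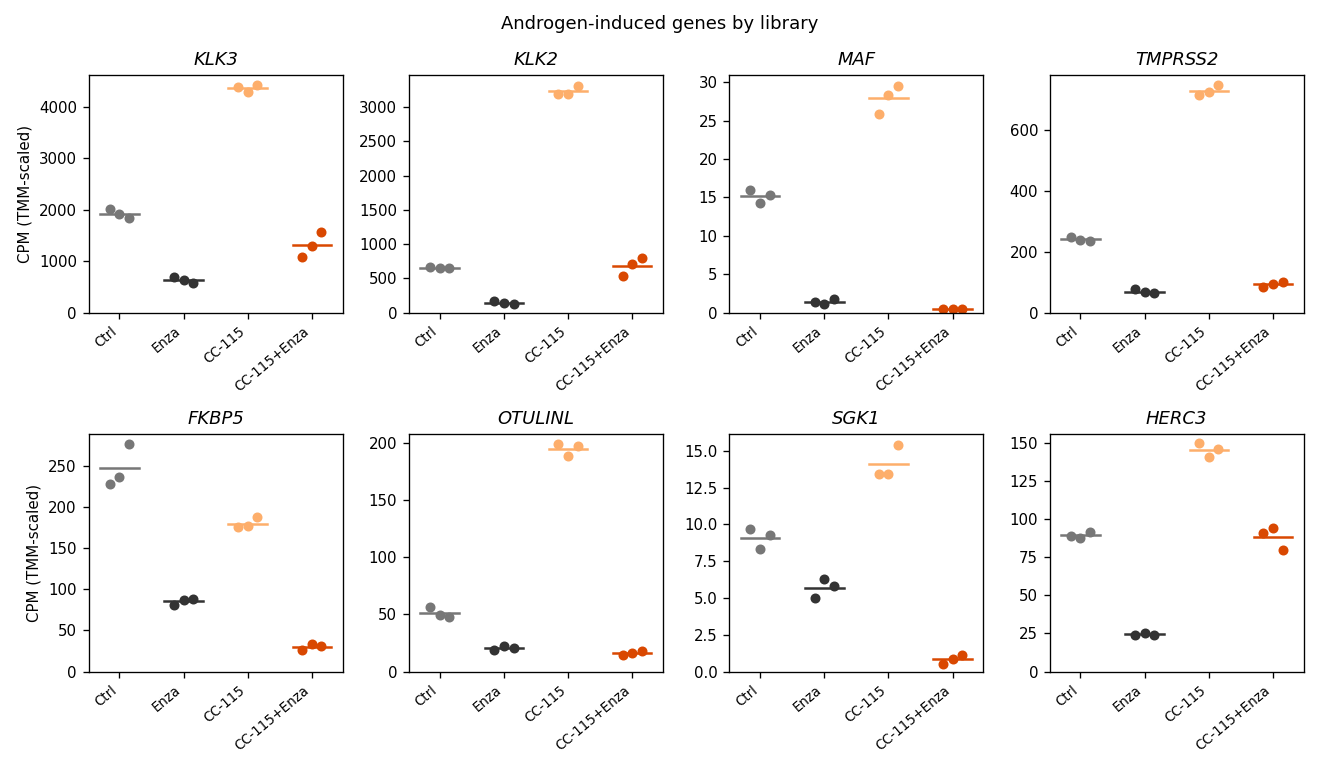
CPM (TMM-scaled, linear axes from 0) of 8 androgen-induced genes and kallikreins in each library of Ctrl, Enza, CC-115 and CC-115+Enza. Points are libraries and lines are group means. In every panel the 3 CC-115+Enza libraries lie below the 3 CC-115 libraries, and for HERC3 they reach about the Ctrl level, 88.2 against 89.4 CPM on average.

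The steepest falls of the list included genes less abundant than TMPRSS2 and FKBP5, such as HPGD, MAF and SGK1. HPGD, which breaks down prostaglandins, had 156, 191 and 200 counts in the CC-115 libraries and 1, 2 and 1 counts in the CC-115+Enza libraries. Scaled to library size, the ratio of the summed counts was 163, with an exact 95% interval of 63.4 to 602 that covers counting error only. The transcription factor MAF went from 25.8, 28.4 and 29.5 to 0.467, 0.519 and 0.446 CPM (-5.86 ± 0.16). PGC, a pepsinogen made in prostate epithelium, changed by -4.53 ± 0.20, and CHRNA2, a nicotinic receptor subunit, by -4.14 ± 0.23. SGK1, a kinase downstream of steroid receptors and of TOR complex 2, went from 13.4, 13.4 and 15.4 to 0.516, 0.873 and 1.15 CPM. OTULINL went from 199, 188 and 197 to 14.3, 16.5 and 17.7 CPM. SLC45A3, a prostate membrane transporter, changed by -3.46 ± 0.12.

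Whether the fall differed from that without inhibitor was tested as a difference of the 2 Enza effects. Across all genes this difference was called as higher with CC-115 for 0.993% and as lower for 2.27%, or 227 and 520 genes. That split was not stable: it was 217 and 225 without library 2 of Ctrl, 219 and 226 without library 3 of Ctrl, 297 and 321 without library 1 of NU7441, 401 and 488 with a stricter filter, and 82 and 84 in the fit of the 12 libraries involved. Of the 49 androgen-induced genes, 20 fell further with CC-115, 1 fell less and 28 had no called difference. That last fit called 11 as falling further. The difference was -3.37 ± 0.24 for SGK1, whose Enza effect without inhibitor was only -0.67, and -2.29 ± 0.13 for OTULINL. It was -2.45 ± 0.23 for MAF, -1.16 for TMPRSS2 and -1.03 for FKBP5. HERC3, a ubiquitin ligase, went the other way: it changed by -0.72 ± 0.09 on CC-115 and by -1.87 without inhibitor, a difference of 1.15 (adjusted p = 1.4e-06). SLC45A3 (-0.12) and CHRNA2 (-0.19), which fell strongly in both settings, had no called difference. TSC22D3, also a glucocorticoid-responsive gene, was the member that rose. It had 238, 231 and 230 CPM with CC-115 and 231, 378 and 377 CPM with CC-115+Enza, so the groups overlapped through library 1. Its rise of 0.50 ± 0.13 passed at an adjusted p of 0.0079 and no longer passed without library 3 of CC-115+Enza, at 0.38 with an adjusted p of 0.054.

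**Figure D3:**
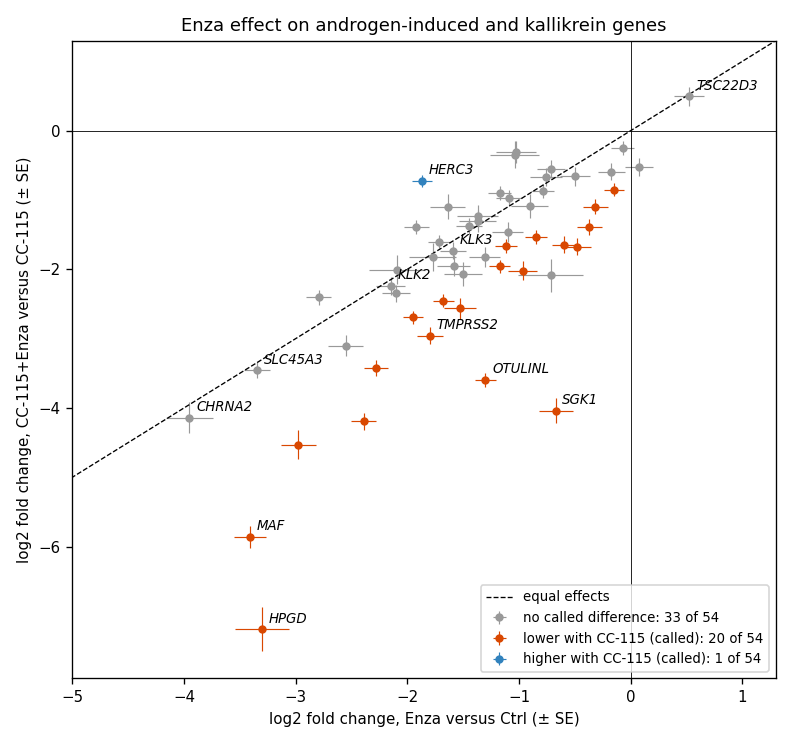
Log2 fold change of 54 androgen-induced and kallikrein genes when Enza was added without inhibitor (x axis) and on CC-115 (y axis), with SE bars. The dashed line marks equal effects, and the x and y values come from different libraries. Orange points, 20 genes with a called difference, lie below the line, the blue point is HERC3, and KLK3 and KLK2 lie near the line.

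Against the Enza effect with CC-223, 9 of the 49 genes fell further with CC-115 and 6 fell less, beside 0.984% and 0.906% of all genes. The count of 6 was not stable. It became 3 without library 1 of CC-115 and 11 without library 1 of both CC-115+Enza and Enza. It was also 3 in the fit of only the groups compared, and without any 1 library of NU7441+Enza, a group outside this comparison. Against the Enza effect with NU7441, 20 fell further and 2 fell less, beside 1.68% and 1.21% of all genes. These comparisons share the CC-115 and CC-115+Enza libraries with each other and are not independent. For SGK1 and OTULINL the difference from CC-223 was smaller, -1.27 and -1.05. SGK1 had an Enza effect of -2.76 with CC-223 and of -0.42 (not called) with NU7441. TMPRSS2 and FKBP5 had no called difference from CC-223.

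Genes known to be held down by androgen moved up. Of 9 measured androgen-repressed genes (of 10), 6 rose, 2 fell and 1 did not pass, with a median of 1.23. CAMK2N1, an inhibitor of the kinase CaMKII, had 1.56, 1.45 and 1.33 CPM with CC-115 and 12.7, 16.1 and 15.3 CPM with CC-115+Enza, a rise of 3.35 ± 0.13. That rise was larger than without inhibitor by 0.98 ± 0.17. UGT2B15 and UGT2B17, which conjugate and inactivate androgens, rose by 1.59 and 1.54. Their relatives UGT2B28 and UGT2B11 fell, by 2.48 and 1.36 on the log2 scale. Reads of this near-identical family may have been split between members, so the single values are uncertain. OPRK1, an opioid receptor, rose by 2.25 at under 0.5 CPM in each of these 6 libraries.

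Nuclear receptors and their cofactors moved in both directions, with 6 of 19 rising and 4 falling. The progesterone receptor PGR rose from 0.117, 0.161 and 0.239 to 2.80, 2.81 and 2.34 CPM, by 3.90 ± 0.27 (adjusted p = 2.5e-11). The mineralocorticoid receptor NR3C2 fell by 0.94 and the corepressor NRIP1 by 0.94 on the log2 scale, and the pioneer factor FOXA1, which opens chromatin for steroid receptors, fell by 0.56. The coactivators EP300 and CREBBP were also called as higher, but this rested on library 1 of CC-115+Enza. EP300 had 158, 80.1 and 78.9 CPM and CREBBP 97.7, 52.3 and 51.3 CPM in libraries 1, 2 and 3 of CC-115+Enza. Without library 1, 3 members of the list rose, and EP300 and CREBBP had values of 0.10 and 0.13 with adjusted p-values of 0.63 and 0.54.

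Enzymes that make or convert androgens had 4 falls and 1 rise among 10 measured. HSD17B6 fell by 1.15, HSD17B4 by 0.92 and SRD5A3 by 0.55 on the log2 scale. SULT2B1 had a rise of 0.71 with overlapping groups (0.382 to 0.886 CPM against 0.873 to 1.06 CPM), and the call ended without library 1 of CC-115, among others. CYP11A1, the first enzyme of steroid synthesis, was among the 12 largest falls under the naming rule (called protein-coding genes of at least 1 average log2 CPM whose groups did not overlap), from 2.53, 2.52 and 2.86 to 0.123, 0.165 and 0.361 CPM. Of 10 polyamine genes, 3 fell and none rose. SAT1, which acetylates spermine and spermidine, fell from 370, 345 and 372 to 93.5, 192 and 179 CPM. ODC1, the entry enzyme of the pathway, fell by 0.89 and the spermine synthase SMS by 0.86. All 3 were lowest in library 1 of CC-115+Enza and were still called without it, at -0.97, -0.63 and -0.62.

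Lipid synthesis genes went up when Enza was added to CC-115. Of 21 sterol synthesis genes, 12 rose and none fell, with a median of 0.46, and all 21 had values above 0. Without library 1 of CC-115+Enza 16 rose, and 21 rose without library 1 of both CC-115+Enza and Enza. Enza raised 1 and lowered 4 of them in cells without inhibitor (median -0.14), raised 1 and lowered 3 with NU7441 (median -0.23), and lowered 6 with CC-223 (median -0.35). The difference of the Enza effect was called as higher with CC-115 for 12 of 21 in each of these 3 comparisons and as lower for none. Against cells without inhibitor the count was 6 or 7 when any 1 library of CC-115 or library 1 of Ctrl was left out, and 5 in the fit of the 12 libraries alone.

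INSIG1, a brake on SREBP processing, had 369, 351 and 364 CPM with CC-115 and 543, 947 and 682 CPM with CC-115+Enza. Its rise was 1.00 ± 0.14 (adjusted p = 3.6e-06), and the difference from the Enza effect without inhibitor was 1.38 ± 0.19. DHCR7, which catalyses the last step to cholesterol, went from 104, 111 and 112 to 187, 217 and 180 CPM, a rise of 0.84 ± 0.09. Lanosterol synthase (LSS) rose by 0.86, and mevalonate kinase (MVK) by 0.75.

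Of 10 fatty acid synthesis genes, 8 rose, 1 fell and 1 did not pass, with a median of 0.68. SCD (chr10:102106881-102124591), which introduces the first double bond into stearate and palmitate, had 694, 690 and 681 CPM with CC-115 and 1806, 2041 and 1661 CPM with CC-115+Enza. The groups lay far apart, with a rise of 1.42 ± 0.11 (adjusted p = 3.6e-10), or 2.67-fold. Without inhibitor Enza lowered SCD by 0.37, and the difference was 1.79 ± 0.16 (adjusted p = 6.6e-08). It was 1.73 against NU7441 and 1.61 against CC-223. Fatty acid synthase (FASN) went from 920, 1161 and 1096 to 2869, 2332 and 1624 CPM, highest in library 1 and with a rise of 1.10 ± 0.19. SREBF1, which encodes the SREBP factor of this pathway, rose by 1.02 and the elongase ELOVL6 by 1.16. ELOVL5, an androgen-induced elongase, was the member that fell, from 567, 542 and 571 to 153, 213 and 218 CPM, and fell alike without inhibitor (-1.52 and -1.59). Against cells without inhibitor 4 of the 10 had a called higher difference, and 8 when library 1 of CC-115+Enza and library 1 of Enza were both left out.

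**Figure D4:**
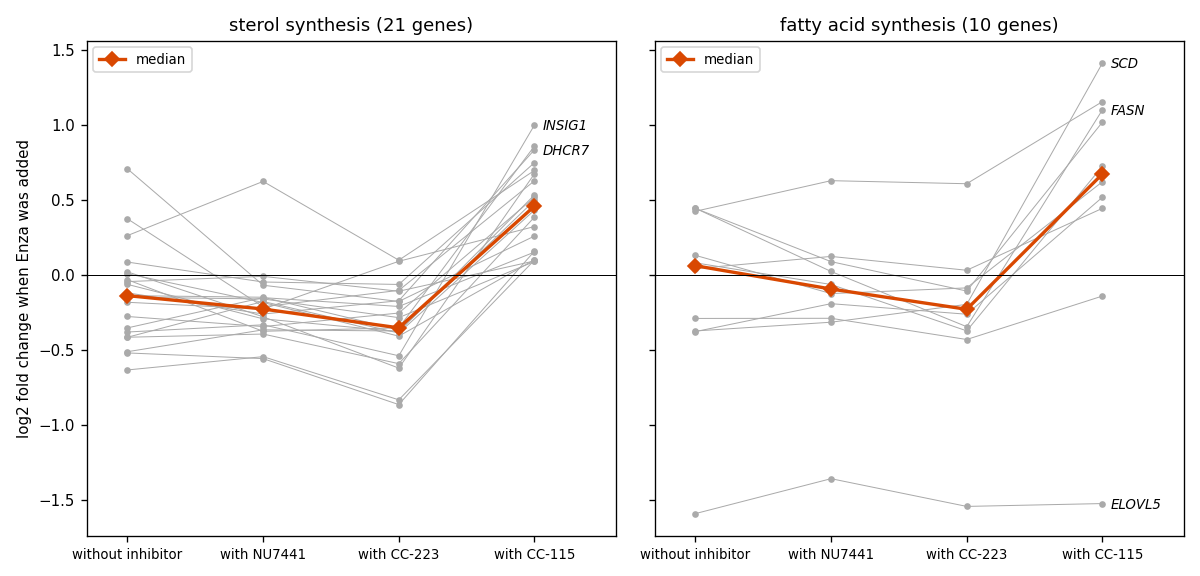
Log2 fold change of 21 sterol synthesis genes (left) and 10 fatty acid synthesis genes (right) when Enza was added without inhibitor, with NU7441, with CC-223 and with CC-115. Grey lines join the values of 1 gene over the 4 settings, which have no order, and orange diamonds are medians. The medians are -0.14, -0.23, -0.35 and 0.46 for sterol genes and 0.06, -0.09, -0.23 and 0.68 for fatty acid genes.

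Genes of protein folding in the endoplasmic reticulum fell together. Of 16 measured, 14 fell, none rose and 2 did not pass, with a median of -0.59. HSP90B1, the chaperone GRP94, had 3308, 3028 and 3064 CPM with CC-115 and 1557, 1825 and 2110 CPM with CC-115+Enza, a change of -0.78 ± 0.11 (adjusted p = 5.7e-06). MANF, a secreted factor of the stress response, went from 228, 224 and 222 to 92.8, 136 and 140 CPM (-0.87 ± 0.12). DNAJB9, a co-chaperone, fell by 0.71. SDF2L1 had -0.78 and was no longer called without library 1 of CC-115+Enza, at -0.61 with an adjusted p of 0.059. Without that library 10 of the 16 fell, with a median of -0.47, and 9 fell in the fit of the 6 libraries alone. The chaperone HSPA5 (-0.15) and the transcription factor XBP1 (-0.03) did not pass. With CC-223 Enza lowered 10 of the 16, with a median of -0.40, and with NU7441 it lowered 2. Against CC-223 none had a called lower difference with CC-115, and against NU7441 1 had. Without inhibitor Enza lowered 5 of the 16, beside 6.75% of all genes. Against cells without inhibitor 4 had a called lower difference with CC-115, beside 2.27% of all genes. That count was not stable under most alternatives. It became 0 without library 2 or library 3 of Ctrl or of CC-115, and 7 without library 3 of Enza. It was also 0 in the fit of the 12 libraries involved, and 2 with no filter. Leaving out any 1 library of NU7441+Enza, CC-223 or CC-223+Enza, all outside the comparison, gave 1.

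The RNA of MTOR, the kinase of both TOR complexes, fell, and that of PRKDC did not pass the test. MTOR had 336, 358 and 376 CPM with CC-115 and 158, 207 and 176 CPM with CC-115+Enza. All libraries with Enza were lower, by -0.98 ± 0.10 (adjusted p = 1.8e-08), against -0.33 for Enza without inhibitor, and the difference of -0.66 ± 0.14 was called (adjusted p = 0.0056). The mean level under the combination, 180.5 CPM, was near that of Ctrl, 197 CPM, and CC-115 alone stood at 357 CPM. With CC-223, Enza changed MTOR by -0.81, and the difference from CC-115, -0.18, was not called. PRKDC, the gene for the DNA-PK catalytic subunit, had 763, 752 and 757 CPM with CC-115 and 758, 915 and 824 CPM with CC-115+Enza. The groups overlapped, and the value of 0.14 ± 0.10 was not called (adjusted p = 0.34). It was called at 0.20 when library 1 of CC-115+Enza and library 1 of Enza were both left out (adjusted p = 0.040).

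Of the 14 genes of the TOR complexes and their regulators, MTOR was the 1 that fell and DEPTOR, an inhibitory subunit, the 1 that rose. Without library 2 of CC-115+Enza 4 of the list fell, and without library 3 of it 2 fell. DEPTOR had 6.96, 7.46 and 6.89 CPM with CC-115 and 7.83, 10.2 and 9.69 CPM with CC-115+Enza, a rise of 0.38 ± 0.11. That rise was smaller than without inhibitor (1.09), with a difference of -0.71 ± 0.15. The call of 0.38 ended without library 1 or library 3 of CC-115 or library 2 or library 3 of CC-115+Enza.

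Cell cycle genes showed few calls, and most of these, though not that of CCNE2, depended on single libraries. No gene of 26 in the mitosis list was called by edgeR or DESeq2, and 1 was lower at an unadjusted p under 0.05 in edgeR. In edgeR 3 fell with no filter and 2 without library 2 or library 3 of CC-115+Enza, and 2 rose in the fit of the 6 libraries without library 1 of CC-115+Enza. The list had a median of -0.22 with 23 values below 0, and a median of -0.01 without library 1 of CC-115+Enza. Of 33 DNA replication and G1/S genes, 3 rose and 1 fell, beside 11.7% and 12.2% of all genes. Without library 2 of CC-115+Enza 1 rose and 7 fell, without library 3 of it 1 rose and 3 fell, and 8 rose in the fit of the 6 libraries without library 1. The cyclin CCNE2 had 8.40, 8.05 and 7.95 CPM with CC-115 and 13.3, 15.1 and 13.4 CPM with CC-115+Enza, a rise of 0.77 ± 0.14, and its Enza effect differed from that without inhibitor by 1.03. CCNE1 (0.37), E2F2 (0.61) and CLSPN (-0.50) passed with adjusted p-values of 0.028, 0.049 and 0.026, and each call ended when single libraries were left out. CLSPN had -0.41 (adjusted p = 0.14) without library 1 of CC-115+Enza. In DNA repair, 1 of 12 end joining genes rose (NHEJ1, 0.84) and 1 fell (XRCC5, -0.41), beside 11.7% and 12.2% of all genes. Neither call held without library 1 of CC-115 or of CC-115+Enza. Among the alternative fits, NHEJ1 lost its call in 20 of 32 and XRCC5 in 22 of 33. Of 18 homologous recombination genes 1 rose and 2 fell: BARD1 by 0.76, RAD54B by -1.16 and RAD51C by -0.52, the last not called without library 1 of CC-115+Enza, at -0.28 (adjusted p = 0.12).

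The counts of the ATF4, glycolysis and interferon lists lay near the share of all genes, 11.7% for rises and 12.2% for falls, and those of the p53 list not far above it. Of 20 p53 targets 4 rose and 3 fell, with TP53INP1 at 1.32 ± 0.14, GDF15 at 0.97 ± 0.17 and BBC3, a pro-apoptotic gene, at 0.56 ± 0.18. BBC3 was not called without library 1 or library 3 of CC-115, nor without library 2 of CC-115+Enza, where it had 0.32 (adjusted p = 0.17) and 2 of the list rose. In the fit of the 6 libraries without library 1 of CC-115+Enza 9 of the list rose. TP53INP1 went from 69.9, 66.4 and 68.8 to 175, 172 and 164 CPM, and its Enza effect was larger than without inhibitor by 1.15. Of 26 genes of ATF4 and amino acid supply, 3 rose and 4 fell, and 1 fell without library 1 of CC-115+Enza or library 3 of CC-115, 2 without library 1 of CC-115 and 8 without library 2 of CC-115+Enza. DDIT4, a stress-induced TOR inhibitor, went from 4.76, 4.81 and 4.98 to 10.8, 13.5 and 16.1 CPM, a rise of 1.47 ± 0.18, and the amino acid transporter SLC7A5 rose by 0.88. The 1-carbon enzymes MTHFD2 (-0.46) and SHMT2 (-0.41) lost their calls without library 1 of CC-115+Enza, at -0.22 and -0.19. Of 14 FOXO targets and receptor feedback genes, 5 rose and 4 fell. CCNG2 rose by 1.04, ERBB2 by 0.83 and PIK3IP1 by 0.75, while IGF1R fell from 25.9, 32.3 and 28.5 to 15.2, 6.84 and 7.48 CPM. The rises numbered 3 without any 1 library of CC-115 or of NU7441+Enza, with no filter and in the fit of the 6 libraries alone. Of 14 glycolysis and hypoxia genes 1 rose and 2 fell, the falls numbering 1 without any 1 library of CC-115 or library 1 of CC-115+Enza and 4 without library 2 or library 3 of CC-115+Enza. Of these genes EGLN3, an oxygen-sensing hydroxylase, rose by 1.56 ± 0.12. In the interferon list of 17 genes IRF1 rose by 1.32 and GBP2 by 1.00, and IFI44 (-1.28) and MX1 (-0.43) were not called without library 1 or library 3 of CC-115 or library 1 of CC-115+Enza.

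In the Wnt list 7 of 16 genes rose and 2 fell, beside 11.7% and 12.2% of all genes, with a median of 0.38. Enza without inhibitor raised 6 of the 16 and lowered 0, with a median of 0.35. The difference between these Enza effects was called as higher with CC-115 for 2 and as lower for 2, beside 0.993% and 2.27% of all genes. RNF43, a ubiquitin ligase that removes Wnt receptors from the membrane, had 6.05, 6.31 and 5.33 CPM with CC-115 and 20.9, 21.8 and 19.1 CPM with CC-115+Enza, a rise of 1.80 ± 0.11. That exceeded its Enza effect without inhibitor by 1.22 ± 0.16. TCF7 (1.29), TCF7L2 (1.07) and WNT7B (1.06) also rose, each with library 1 of CC-115+Enza highest. TCF7 had 19.8 CPM there and 6.96 and 7.94 CPM in the other libraries, and without library 1 its rise was 0.66 and still called. In the fit of the 6 libraries alone 3 of the list rose and none fell.

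WNT5A, a ligand of non-canonical Wnt signalling, responded to Enza in opposite directions. Without inhibitor it rose from 6.35, 7.0 and 6.52 CPM in Ctrl to 26.8, 25.2 and 28.8 CPM with Enza. On CC-115 it went from 9.28, 9.29 and 8.93 to 7.81, 4.58 and 6.52 CPM. The changes were 2.02 and -0.54 ± 0.13, with a difference of -2.56 ± 0.18 (adjusted p = 9.6e-10). With NU7441 and CC-223 Enza raised WNT5A by 1.84 and 1.37. The fall of -0.54 was not called in the fit of the 6 libraries alone (adjusted p = 0.185).

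TNFSF15 (chr9:117546915-117568406), a cytokine of the tumour necrosis factor family, had a called higher Enza effect with CC-115 in all 3 comparisons, the largest such difference under the naming rule against no inhibitor and CC-223 and the next after BACE2 against NU7441. It had 11.04, 10.1 and 10.6 CPM with CC-115 and 92.0, 107 and 101 CPM with CC-115+Enza, a rise of 3.24 ± 0.09 (adjusted p = 3.3e-19). No library of the other 6 groups came near this: the group means lay between 3.84 CPM with CC-223 and 9.77 CPM with Enza. Enza raised it by 0.51 without inhibitor, 0.76 with NU7441 and 1.06 with CC-223, and the differences were 2.73, 2.48 and 2.19. The protease BACE2 went from 3.70, 3.65 and 3.50 to 15.9, 32.4 and 17.0 CPM on CC-115, with differences of 2.07 from no inhibitor, 2.53 from NU7441 and 1.59 from CC-223. The phosphatase receptor PTPRB rose from 11.8, 12.7 and 12.3 to 37.0, 42.5 and 31.9 CPM. S1PR3, a receptor for sphingosine 1-phosphate, rose from 4.38, 3.62 and 4.19 to 14.7, 14.3 and 13.7 CPM, still under its Ctrl mean of 28.2 CPM.

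**Figure D5:**
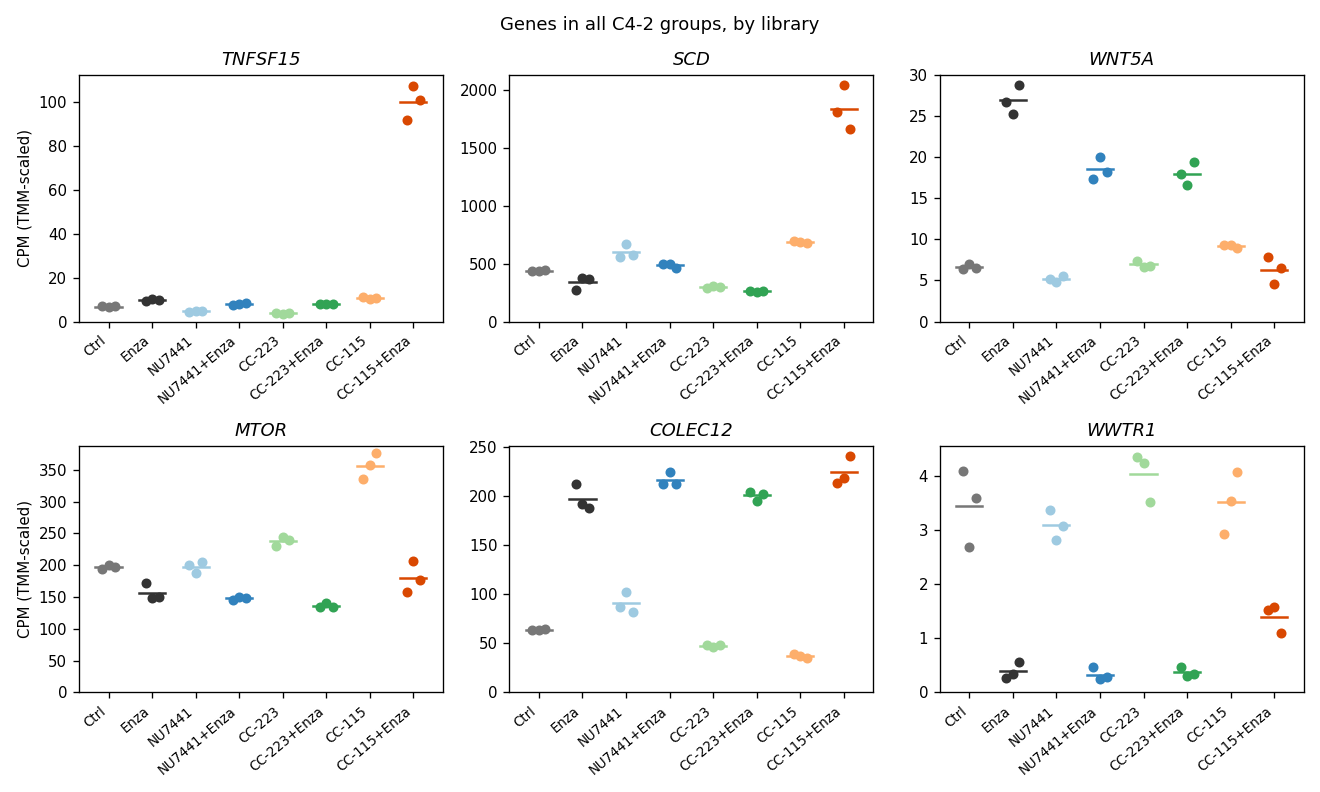
CPM (TMM-scaled, linear axes from 0) of 6 genes in every C4-2 library, by group. Points are libraries and lines are group means. TNFSF15 and SCD are highest in CC-115+Enza, WNT5A rises with Enza in every setting except with CC-115, and COLEC12 rises with Enza in all settings.

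WWTR1, the transcriptional coactivator TAZ, fell less with CC-115. It went from 2.94, 3.54 and 4.08 to 1.52, 1.58 and 1.10 CPM, a change of -1.33 ± 0.20, against -3.15 without inhibitor, and the difference was 1.82 ± 0.34. TMTC1, a glycosyltransferase of the endoplasmic reticulum, went from 8.81, 8.27 and 8.54 to 2.82, 2.5 and 2.74 CPM. Without inhibitor Enza raised TMTC1 by 0.48, and the difference from CC-223 was -2.06. Against CC-223 the other genes under the rule were NAV3 (-2.01) and ACTRT3 (-2.32) as lower, and the endothelial lipase LIPG (1.78) and RAPH1 (1.68) as higher. ACTRT3 on CC-115 itself had a fall of -0.77 that was not called without library 1 of CC-115+Enza (adjusted p = 0.17). The difference of HPGD from CC-223, -2.54, was not called without library 1 of CC-115+Enza (adjusted p = 0.054) or library 3 of CC-223+Enza (adjusted p = 0.091).

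The largest rises under the naming rule were shared with Enza alone in most cases. GLP1R, the receptor for glucagon-like peptide 1, went from 1.53, 1.42 and 1.43 to 21.0, 10.3 and 13.4 CPM (3.35 ± 0.21), against 2.39 without inhibitor. Its difference from NU7441, 2.02, was called, and that from no inhibitor was not (0.96, adjusted p = 0.11). COLEC12, a scavenger receptor, went from 39.5, 36.5 and 34.9 to 213, 218 and 241 CPM, with all 4 Enza groups between 197 and 224 CPM on average. FOXN4 rose by 3.08, IL1RN, the interleukin 1 receptor antagonist, by 2.92, the phospholipase PLD1 by 2.84 and the matrix protein TNC by 2.68. CNTN5 rose by 2.46, AMIGO2 by 2.45 and ABCA1, which exports cholesterol, by 2.45. ABCA1 rose by 2.93 without inhibitor, with a difference of -0.49 that was not called. Among the largest falls, CCDC141 went from 15.1, 14.7 and 15.8 to 0.123, 0.118 and 0.0637 CPM (-7.20 ± 0.34), against -6.00 without inhibitor. DOCK8 fell by 4.78, TNFAIP8 by 3.64 and the desmosomal cadherin DSC1 by 3.56 on the log2 scale. For TNFAIP8 the difference from NU7441 was -2.49.

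Markers were checked against the labelled line. Luminal epithelial genes were abundant: the 9 of the list summed to 4847 to 4874 CPM of the raw library totals with CC-115 and 4943 to 5147 CPM with CC-115+Enza. Among the 4 that fell were FOXA1, KRT8 (-0.52) and KRT18 (-0.52), KRT18 not without library 1 of CC-115+Enza (adjusted p = 0.092), and 1 member, FOLH1, rose by 0.39. No luminal marker was called as higher without any 1 library of CC-115, without library 2 or library 3 of CC-115+Enza, with no filter or in the fit of the 6 libraries alone. Basal markers summed to 0.143 to 0.233 CPM with CC-115 and 0.0892 to 0.255 CPM with CC-115+Enza, with KRT5 at 0 counts. KRT14, the 1 basal gene measured, had 3, 3 and 4 counts against 0, 1 and 0. The ratio of the sums scaled to library size, 11.9, had an exact 95% interval of 1.70 to 518 that covers counting error only. KRT14 was called as lower, and lost that call in 23 of 30 alternative fits, DESeq2 among them. Neuroendocrine markers summed to 5.24 to 6.51 and 6.57 to 10.7 CPM, with INSM1 at 0 counts. CHGA, at under 1.5 CPM in each library, was the 1 of 5 measured that rose (1.77 ± 0.41). Stromal, immune and endothelial markers summed to 6.95 to 7.77 and 7.94 to 13.6 CPM, with PECAM1 at 0 counts. COL3A1 rose by 2.06, and VWF and PDGFRB fell by 1.35 and 0.79. Their part in the results above was not tested.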

How the data were processed

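Total RNA libraries of C4-2 cells were prepared with a stranded kit, per the labels. The deposited values are raw counts per gene in 1 table. Per the submitters' processing notes the authors aligned to hg19 with STAR 2.5.2a, counted with featureCounts 1.5.0-p3 and tested with DESeq2 1.14.1. How strand and multiply aligned reads were treated was not given in the sources used here, so a gene and its antisense partner cannot be told apart.

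All 24 C4-2 libraries (8 groups of 3) entered 1 fit: filterByExpr, TMM, edgeR 4.0.16 quasi-likelihood with robust dispersions (limma 3.58.1, R 4.3.3), with p-values adjusted over all 22860 genes. Each SE was obtained as |log2 change|/√F. CPM are relative to a library, so a change in total RNA per cell is not seen. Differences of Enza effects are contrasts of the same fit. The fitting script was first tested on simulated data. Tables were made with Python 3.11.15 and pandas 2.3.3. DESeq2 1.42.0 served as an alternative.

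The comparison, the 24 lists and the named genes' rule were chosen with earlier results of these data known. The rule takes KLK2, KLK3, PRKDC and MTOR, the 12 largest rises and 12 largest falls among called genes that code for protein and have an approved symbol, an average log2 CPM of at least 1 and no overlap, the 5 largest differences each way, and per list up to 4 called members (8 for androgen-induced genes and kallikreins), with androgen-induced genes that rose. FOLH1, SREBF1, HSPA5, XBP1, UGT2B11, UGT2B17, KLKP1, TMPRSS2, FKBP5, HERC3, EP300 and CREBBP were named beside it after their values were seen. Some genes that the rule takes are not reported here. The 22Rv1 libraries were not used here. Promoters are from RefSeq.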

Additional observations from a re-analysis of the deposited data

Results flagged for a closer look

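These results were singled out because the effect of Enza in cells with CC-115 differed from its effect in another setting by a test of the difference itself. The 3 comparisons share the CC-115 and CC-115+Enza libraries. The difference was called for 747 genes against cells without inhibitor, 662 against NU7441 and 432 against CC-223.

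Against cells without inhibitor, the largest negative log2 differences were in HPGD (-3.90), SGK1 (-3.37), WNT5A (-2.56), MAF (-2.45) and OTULINL (-2.29). The largest positive ones were in TNFSF15 (2.73), BACE2 (2.07), WWTR1 (1.82), SCD (1.79) and S1PR3 (1.67).

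Against NU7441, the lowest values were those of HPGD (-4.12), SGK1 (-3.62), MAF (-2.83), TNFAIP8 (-2.49) and WNT5A (-2.38). The highest were those of BACE2 (2.53), TNFSF15 (2.48), GLP1R (2.02), PTPRB (2.01) and S1PR3 (1.95).

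Against CC-223, HPGD (-2.54), ACTRT3 (-2.32), TMTC1 (-2.06) and NAV3 (-2.01) were lowest, and TNFSF15 (2.19), WWTR1 (2.08), LIPG (1.78), RAPH1 (1.68) and SCD (1.61) were highest. The call of HPGD against CC-223 ended without library 1 of CC-115+Enza.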

How the results depend on the processing

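Of 109 named genes, 77 kept their direction and their side of the threshold for Enza added to CC-115 under every alternative that gave a value, 30 lost the call under at least 1, 2 gained one, and none reversed. The 10 named differences kept theirs against cells without inhibitor and against NU7441, and 9 of 10 did against CC-223. The counts of called genes moved more. A fit of only the groups compared called 1908 genes for Enza added to CC-115 (main 5451), 1053 for Enza against Ctrl (3679) and 166 for the difference from cells without inhibitor (747). Leaving out library 1 of both CC-115+Enza and Enza gave 1425, 1592 and 1224 called differences from no inhibitor, NU7441 and CC-223 (main 747, 662 and 432), and no filter gave 666 against CC-223. Leaving out 1 replicate at a time gave 3501 to 7792 genes for Enza added to CC-115, 1808 to 6039 for Enza against Ctrl, 388 to 1250, 397 to 1111 and 263 to 863 for the differences in the same order, and 50 to 51 for the 54 androgen-induced and kallikrein genes, of which 50 fell with all libraries. The other alternatives gave 47 to 52 for these. Same-numbered libraries of CC-115 and CC-115+Enza did not deviate together (r of -0.26, -0.24 and 0.09 across genes), and not every library correlated best with its own number, so the labels' numbers were not taken as pairs. With the replicate block 4915 genes were called for Enza added to CC-115, 3165 for Enza against Ctrl, and 577, 539 and 344 for the differences. The fit of only the 6 libraries without library 1 of CC-115+Enza was added after seeing the data. Genes at a few counts per library, such as HPGD, have wide counting intervals.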
